A study of Mus musculus with 6 samples.

Results

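The genes described here are the chemokines and chemokine receptors of mouse liver, chosen by gene symbol alone: names that start with Ccl, Cxcl or Cx3cl (ligands) or with Ccr, Cxcr or Cx3cr (receptors), followed by a number. The pattern found 56 of the 22068 genes listed in the files, 38 ligand genes and 18 receptor genes. Chemokines are small secreted proteins that guide migrating leukocytes. They bind receptors of the G protein-coupled class on the target cell, and many are held on heparan sulphate chains of the tissue. In liver they are known for drawing monocytes, neutrophils and lymphocytes out of the sinusoids, and Kupffer cells, endothelium, stellate cells, bile duct cells and hepatocytes can all produce some of them.

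The study asked how loss of the kinases Mst1 and Mst2, encoded by Stk4 and Stk3, alters liver gene expression. Polyadenylated RNA from whole liver of C57BL/6 mice at 6 weeks of age was sequenced in 3 control libraries (Mst1-/-; Mst2fl/fl; alb-Cre-/-) and 3 liver double knockout libraries (Mst1-/-; Mst2fl/fl; alb-Cre+/+), called dKO below. All 6 libraries therefore carry the Mst1 null and the floxed Mst2 alleles, and the groups differ in the Cre transgene driven by the albumin promoter, which is active in cells of the hepatocyte lineage. Which cells had recombined was not measured here. Whether the replicates are different animals is not said in the labels. The p-values therefore describe the spread between these libraries only, and that spread may be technical.

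Values are RPKM, read numbers divided by transcript length and library size, which allows levels to be compared between genes. A change is the dKO mean minus the control mean of log2(RPKM + 1), with its standard error (SE). It understates the change of genes near or below 1 RPKM, so a ratio of mean RPKM is given beside it. The 11062 genes whose mean over the 6 libraries reached 1 RPKM were tested together with limma. A gene was called where its p, adjusted by Benjamini and Hochberg's method over all 11062, was under 0.05. Depth estimated from the steps between low values was 16.95 to 24.8 M reads per library. The search was limited to a preset range, because multiples of a depth fit the steps as well. Read numbers given below depend on that range. Stk3 was at 6.00, 5.42 and 5.20 RPKM in control and 5.13, 4.25 and 5.32 RPKM in dKO, and Stk4 at 5.50, 4.69 and 4.66 RPKM in control and 5.84, 4.93 and 5.76 RPKM in dKO. Stk4 is thus not near 0 although every label gives an Mst1 null genotype. With 1 value for the whole gene, a deleted part cannot be seen, so neither gene checks the labels. Hepatocyte markers summed to 41838 to 68922 RPKM per library, with Alb the most abundant of them in every library. In whole tissue, fewer cells of a type and less RNA per cell cannot be told apart.

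Chemokine ligands are sorted by the spacing of the first cysteines of the mature protein, which form disulphide bonds and give the classes their names. The coding sequence around those first cysteine codons is shown for the ligands on which the results turn, to show to which class each belongs. Each line is the coding strand of a GENCODE M21 transcript (GRCm38), with the first cysteine codons in capitals and the flanking codons in lower case.
Ccl2: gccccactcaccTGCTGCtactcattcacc
Ccl27a: tccagcactagcTGCTGTactcagctctat
Ccl24: atcccctcatctTGCTGCacgtcctttatt
Ccl9: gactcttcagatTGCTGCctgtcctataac
Cxcl14: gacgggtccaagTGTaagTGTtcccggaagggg
Cxcl16: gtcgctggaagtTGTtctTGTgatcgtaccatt
Cx3cl1: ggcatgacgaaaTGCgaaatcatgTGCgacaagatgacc
In Ccl2, Ccl27a, Ccl24 and Ccl9 the codons are adjacent (CC class). In Cxcl14 and Cxcl16 there is 1 codon between them (CXC class), and in Cx3cl1 there are 3 (CX3C class). Of the 14 ligand genes that could be tested, 7 had the CC, 6 the CXC and 1 the CX3C spacing.

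Most genes of the family were scarce in these livers. Only 10 of the 56 were above 1 RPKM in all 6 libraries, which is 17.9% of the family against 44.3% of all listed genes, and 32 were above 1 RPKM in no library. The number above 1 RPKM in a library was 14, 15 and 14 in the control libraries and 18, 18 and 21 in the dKO libraries. The dKO counts were all above the control counts, as they were over all listed genes (10322, 10634 and 10464 in control and 11189, 11031 and 11651 in dKO). By group mean, 14 genes exceeded 1 RPKM in control and 19 in dKO. The 9 genes listed at 0 in every library were Ccl1, Ccl19, Ccl21a, Ccl21b, Ccl21c, Ccl26, Ccl27b, Cxcl3 and Cxcl15, and 23.4% of all listed genes were at 0 throughout. Several of these 9 have near-identical copies in the genome, and 58.8% of the 31-base words of Ccl19, 80.6% of those of Ccl21a and 100% of those of Ccl27b occur in another gene. How the authors' counting treated reads shared by copies is not given in the sources used here.

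Cxcl12 and Ccl9 dominated the family's signal. Cxcl12, the ligand of Cxcr4 made by stromal and endothelial cells, was at 107, 121 and 112 RPKM in control and 102, 105 and 98.0 RPKM in dKO. It alone held 47.7% to 58.0% of the summed RPKM of the family in control libraries and 35.1% to 44.9% in dKO libraries. Every dKO value of Cxcl12 lay below every control value, but the log2 difference of -0.16 ± 0.14 (SE) did not pass the test (limma, adjusted p = 0.429).

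**Figure D1:**
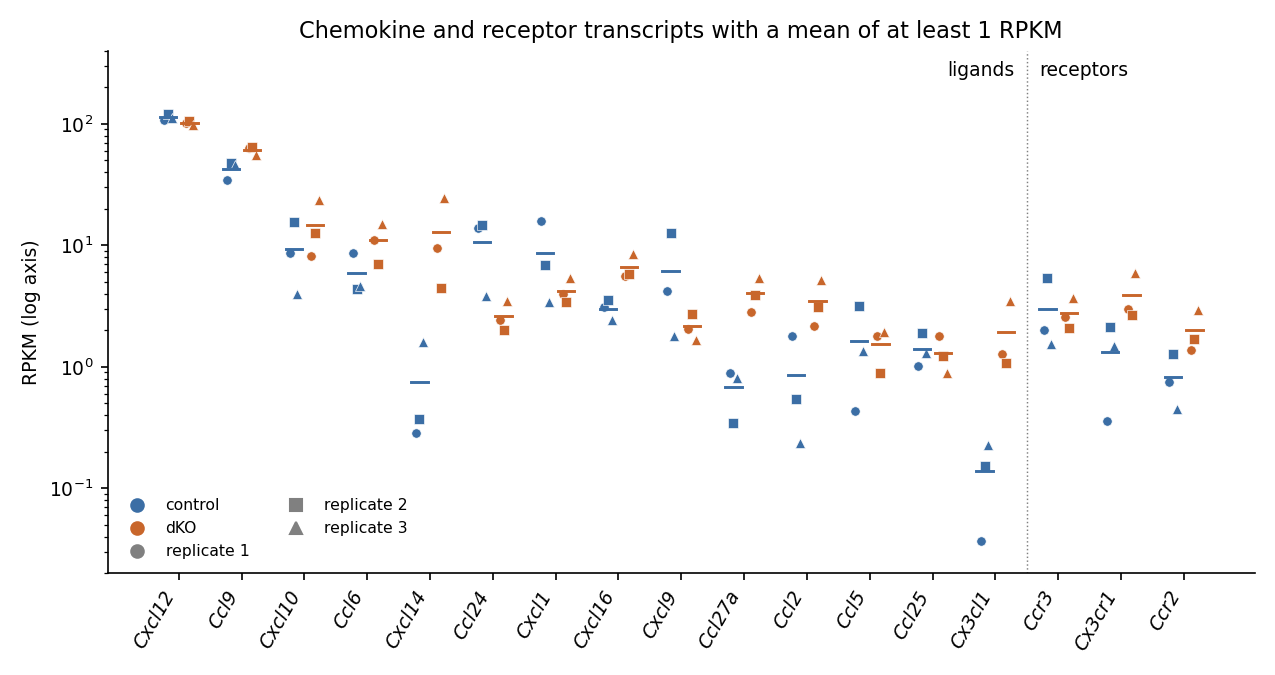
RPKM on a log axis of 17 chemokine and receptor genes whose mean reached 1 RPKM, ligands on the left and receptors on the right, each group ordered by mean. Points are libraries (3 control in blue, 3 dKO in orange, shape for the replicate) and bars are group means. Cxcl12 lies near 100 RPKM in all 6 libraries, while Cx3cl1 and Cxcl14 lie under 2 RPKM in control and above 1 RPKM in dKO.

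Of the 56 genes, 18 could be tested: 14 ligands and 4 receptors. In dKO livers 5 ligand genes rose (Cxcl14, Cx3cl1, Ccl27a, Ccl2 and Cxcl16), and no gene of the family was called lower. The 5 are 27.8% of the tested members, and 17.8% of all tested genes were called higher by the same rule and 2.17% lower. The filter bears on these counts: 5 of the 18 (Cxcl14, Cx3cl1, Ccl27a, Ccl2 and Ccr2) had a control mean under 1 RPKM and were tested only because they were higher in dKO, and none had a dKO mean under 1 RPKM. Of the 13 with both group means at 1 RPKM or more, Cxcl16 alone was called higher, which is 7.69% against 16.4% of all such genes. With no filter, 4 of the 47 members that could be fitted were called higher (8.51%, Ccl2 being lost), against 8.48% of all 16907 genes fitted. The share of the family called higher therefore lay above, below or near that of all genes, depending on which genes were counted. It was near with no filter, and the counts are a description of the members that passed. No tested receptor gene passed the test. Before adjustment, 10 of the 18 had p under 0.05 (8 ligands and 2 receptors), and so did 37.9% of all tested genes. The dKO and control values did not overlap for 8 members on the higher side and 2 on the lower side, and among all tested genes the shares were 38.3% and 6.73%. The median log2 change over the tested members was 0.59, against 0.23 over all tested genes. Like the overlap counts and the signs that follow, it includes the 5 members that passed the filter through their dKO values. These figures therefore describe the members that passed, not the family as a whole. Positive changes made up 12 of the 18, and 76.1% over all tested genes. Scaling the libraries to each other removed that general shift: the median of all tested genes became -0.01 after median-ratio scaling and -0.03 after quantile normalization. Of all tested genes, 873 were then called higher and 614 lower with the first, and 727 and 554 with the second, in place of 1965 and 240 as deposited. Of the family, 4 were called higher with the first (Ccl2 was lost) and 3 with the second (Ccl2 and Cx3cl1 were lost), and 1, Ccl24, was called lower with each.

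**Figure D2:**
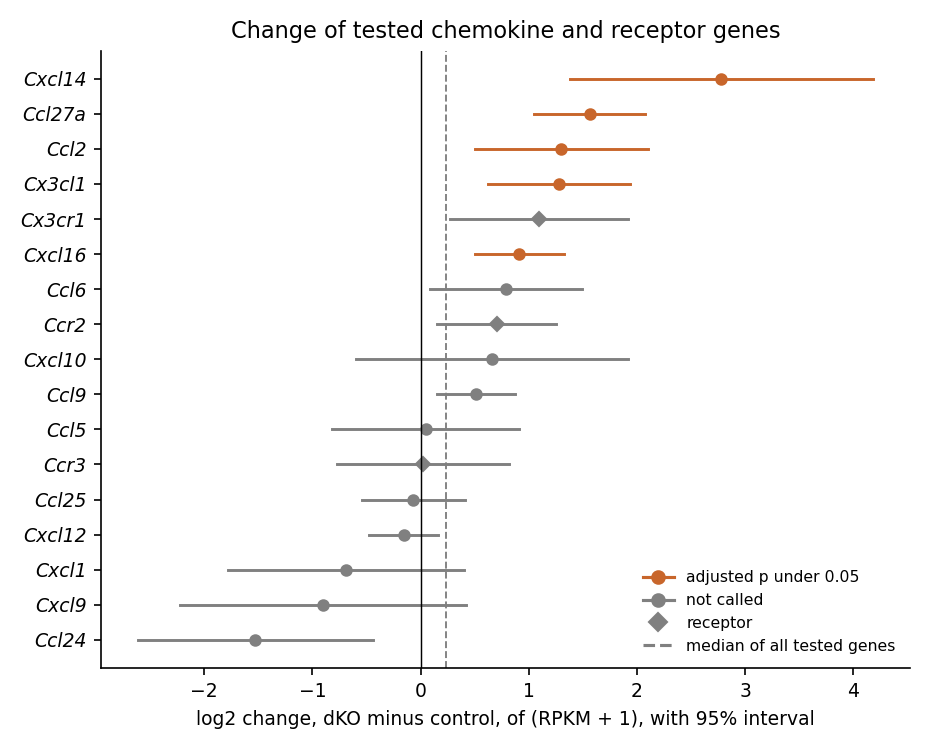
Change of 17 tested genes, dKO minus control, of log2(RPKM + 1), with its 95% interval from limma. Orange marks adjusted p under 0.05, diamonds are receptors, and the dashed line is the median of all tested genes (0.23). The 5 called ligands lie to the right of that line with their whole interval, and Ccl24 is the lowest at -1.53.

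Cxcl14 had the largest change of the tested members. It encodes a CXC chemokine made mainly by epithelial cells. Its level was 0.284, 0.370 and 1.60 RPKM in control and 9.59, 4.47 and 24.5 RPKM in dKO. Every dKO library was above every control library, and the third library was the highest of each group. The mean went from 0.750 ± 0.734 to 12.9 ± 10.4 RPKM (SD, n = 3 each), a ratio of 17.1. On the log2 scale it rose by 2.78 ± 0.58 (SE; limma, adjusted p = 0.0241). The size of the ratio rests on single libraries: it was 39.3 without the third control library and 9.37 without the third dKO library. The adjusted p was 0.0851 without the first control library, and the call was also lost without the second control library and without the first dKO library.

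Cx3cl1, known as fractalkine, is a membrane-anchored chemokine that also acts as an adhesion molecule and is shed by the proteases Adam10 and Adam17. In control it was at 0.0367, 0.152 and 0.228 RPKM, and in dKO at 1.27, 1.07 and 3.46 RPKM. All dKO libraries were above all control libraries, and the third dKO library was the highest. The mean went from 0.139 ± 0.096 to 1.93 ± 1.32 RPKM (SD, n = 3 each), a ratio of 13.9. This was 1.28 ± 0.29 (SE) on the log2 scale (limma, adjusted p = 0.0192), for a gene whose mean over the 6 libraries, 1.035 RPKM, passed the filter through its dKO values. The control values are small, about 2, 12 and 16 reads on the gene when converted with the estimated depth and the longest annotated transcript, against about 91, 75 and 276 in dKO. The ratio ranged from 8.43 without the third dKO library to 20.5 without the third control library, and without the first control library the adjusted p was 0.0719.

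Ccl27a encodes a CC chemokine known from keratinocytes of the skin. Its level was 0.896, 0.343 and 0.814 RPKM in control and 2.81, 3.91 and 5.40 RPKM in dKO. The groups were well separated, with every dKO library above 2 RPKM and every control library under 1 RPKM. Its mean rose from 0.685 ± 0.298 to 4.04 ± 1.30 RPKM (SD, n = 3 each), a ratio of 5.90 and a log2 change of 1.56 ± 0.23 (SE; limma, adjusted p = 0.00407). That call was kept under all 13 alternative settings tried. Its identity is less certain than its direction, since 57.0% of its 31-base words occur in near-identical copies such as Ccl27b and Gm13306. Ccl27b and Gm13306 were listed at 0 in all 6 libraries.

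Ccl2, also called MCP-1, draws monocytes that carry its receptor Ccr2. The control libraries were at 1.79, 0.543 and 0.237 RPKM and the dKO libraries at 2.16, 3.08 and 5.19 RPKM. The groups did not overlap, although the highest control library, the first, lay close to the lowest dKO library. The mean went from 0.856 ± 0.822 to 3.48 ± 1.55 RPKM (SD, n = 3 each), a ratio of 4.06 and a log2 change of 1.302 ± 0.35 (SE; limma, adjusted p = 0.0356). Of the 5 calls it was the least stable, being lost under 8 of the 13 alternatives, with adjusted p between 0.0270 and 0.111 over them. They include the removal of the second or the third control library, and of the second or the third dKO library, and the ratio was 8.91 without the first control library.

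Cxcl16, a membrane-anchored CXC chemokine whose receptor Cxcr6 marks liver-resident lymphocytes, rose by the smallest ratio of the 5. It was at 3.08, 3.52 and 2.45 RPKM in control and 5.62, 5.76 and 8.51 RPKM in dKO. Each dKO library was above each control library by more than the control spread. The mean rose from 3.02 ± 0.54 to 6.63 ± 1.63 RPKM (SD, n = 3 each), a ratio of 2.20 and a log2 change of 0.91 ± 0.18 (SE; limma, adjusted p = 0.0126), and the call was kept under all 13 alternatives. On the opposite strand, 18.5% of its 31-base words lie in Zmynd15, and whether counting used strand is not given in the sources used here. Zmynd15 was at 0.660, 1.50 and 0.810 RPKM in control and 1.14, 1.80 and 1.03 RPKM in dKO. The values of Zmynd15 overlap between the groups and are below those of Cxcl16 in every library.

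The third dKO library was the highest of the 6 for each of these 5 ligands. It also had the largest family sum, 280 RPKM against 193 to 254 RPKM in the other libraries, and 21 members above 1 RPKM. Over all listed genes, too, the third dKO library had the most above 1 RPKM, 11651. Over all tested genes its correlations with the control libraries were 0.904 to 0.922, against 0.941 to 0.967 for the first and second dKO libraries. The share of all genes highest in that library was not computed, so its rank is not a result about the family.

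Ccl24, or eotaxin-2, attracts eosinophils through Ccr3, and its values differed in the direction opposite to those 5. Its level was 13.8, 14.6 and 3.82 RPKM in control and 2.45, 2.00 and 3.47 RPKM in dKO. All dKO libraries were below all control libraries, but the third control library was much closer to dKO than to the other controls. The mean was 10.7 ± 5.99 RPKM in control and 2.64 ± 0.751 RPKM in dKO (SD, n = 3 each), and the log2 difference of -1.53 ± 0.46 (SE) missed the threshold (limma, adjusted p = 0.0577). Without the third control library it was -2.08 with an adjusted p of 0.00125. It was also called lower without robust moderation, at 0.0368, and on both scalings, at 0.0408 after median-ratio scaling and 0.0367 after quantile normalization. Marco, a scavenger receptor of Kupffer cells, gave 11.6, 20.4 and 5.51 RPKM in control and 4.79, 2.74 and 3.04 RPKM in dKO (limma adjusted p = 0.0531). For Marco too the third control library was the nearest to dKO. Marco was picked for this likeness after its values were seen, and most of the Kupffer cell list had the opposite sign (median log2 change 0.41 over 14 genes, with Clec4f at 0.72).

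Ccl9 and Ccl6 are CC chemokines of myeloid cells in mice. Ccl9 was at 34.6, 47.3 and 45.8 RPKM in control and 62.8, 63.9 and 55.6 RPKM in dKO, with no overlap. Its log2 change of 0.51 ± 0.16 (SE) just missed the threshold (limma, adjusted p = 0.0521), with 0.0392 when the second control library was left out. After median-ratio scaling, which removes the shift of the median gene, its change was 0.23 with an adjusted p of 0.379. Ccl6 was at 8.67, 4.404 and 4.62 RPKM in control and 11.05, 6.99 and 14.9 RPKM in dKO, and the highest control library exceeded the lowest dKO library. Its log2 change of 0.79 ± 0.30 (SE) was not called (limma, adjusted p = 0.0995), and without the second dKO library it was, at 0.0424.

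Cxcl9 and Cxcl10 are interferon-induced ligands of Cxcr3, and they differed in the sign of their change. Cxcl9 was at 4.23, 12.6 and 1.78 RPKM in control and 2.06, 2.74 and 1.65 RPKM in dKO. Cxcl10 was at 8.57, 15.4 and 3.95 RPKM in control and 8.21, 12.6 and 23.5 RPKM in dKO. In both genes the second control library was the highest control and the third the lowest. Neither log2 change, -0.90 for Cxcl9 and 0.66 for Cxcl10, passed the test (limma, adjusted p = 0.271 and 0.386), and whether the 2 changes differ was not tested. Their size rests on single controls: Cxcl9 was -0.29 without the second control library and -1.43 without the third, and Cxcl10 was 1.08 and 0.21. Cxcl1, a neutrophil chemoattractant, was at 15.8, 6.83 and 3.42 RPKM in control and 3.95, 3.41 and 5.36 RPKM in dKO. Its highest value was in the first control library, and the other libraries overlapped (log2 change -0.69, limma adjusted p = 0.306, and -0.18 without that library).

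Ccl5 and Ccl25 gave no clear direction. Ccl5, a T cell attractant also known as RANTES, was at 0.434, 3.15 and 1.35 RPKM in control and 1.81, 0.883 and 1.93 RPKM in dKO (limma, adjusted p = 0.931). Ccl25, the ligand of Ccr9, was at 1.02, 1.91 and 1.29 RPKM in control and 1.78, 1.24 and 0.885 RPKM in dKO (limma, adjusted p = 0.831). For Ccl5 the 95% interval of the log2 change ran from -0.81 to 0.91, which is wide on both sides of 0.

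Of the 3 tested receptors described here, Cx3cr1 and Ccr2 had higher values in every dKO library and Ccr3 had overlapping values. Cx3cr1, the receptor of Cx3cl1, found on monocytes and some macrophages, was at 0.356, 2.14 and 1.47 RPKM in control and 3.02, 2.67 and 5.97 RPKM in dKO. Ccr2, the receptor of Ccl2 on inflammatory monocytes, was at 0.755, 1.27 and 0.452 RPKM in control and 1.38, 1.70 and 2.91 RPKM in dKO. For both, the third dKO library was the highest and the lowest dKO library lay just above the highest control library. The log2 change of Cx3cr1 was 1.09 ± 0.35 (SE; limma adjusted p = 0.0644) and that of Ccr2 was 0.70 ± 0.24 (SE; limma adjusted p = 0.0693), so neither was called. Both would be called without the second control library, at 0.0377 and 0.0409.

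Ccr3, the eotaxin receptor, was at 1.99, 5.42 and 1.55 RPKM in control and 2.56, 2.08 and 3.66 RPKM in dKO (limma, adjusted p = 0.968). The second control library stood above all others, and the dKO libraries lay inside the control range. The means in dKO ran from 1.996 RPKM for Ccr2 over 2.76 RPKM for Ccr3 to 3.88 RPKM for Cx3cr1. Ccr2 and Ccr3, neighbours in that order, differ by less than the SD of either (0.811 and 0.810 RPKM).

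The ligands and receptors of some known pairs can be set side by side. Cx3cl1 was called higher and its receptor Cx3cr1 had no overlap between groups without being called, and Ccl2 and Ccr2 gave the same picture. Among all tested genes, 38.3% had no overlap on the higher side. Cx3cl1, Ccl2 and Ccr2 also passed the filter through their dKO values. Whether ligand and receptor changed together more than other genes was not tested. Cxcl16 was called higher, while its receptor Cxcr6 had a mean of 0.273 ± 0.149 RPKM in control and 0.202 ± 0.050 RPKM in dKO (SD, n = 3 each), under the filter. Cxcl12 was the most abundant ligand, and its receptor Cxcr4 was at 0.572, 0.548 and 0.342 RPKM in control and 0.983, 0.982 and 1.38 RPKM in dKO. Cxcr4 was too low to be tested, and its dKO values were all above its control values. Other pairs did not move alike: Ccl24 was lower in every dKO library, while Ccr3 overlapped between the groups. Cxcr3, the receptor of Cxcl9 and Cxcl10, had means of 0.343 RPKM in control and 0.211 RPKM in dKO. For Ccr9, the receptor of Ccl25, they were 0.0844 and 0.132 RPKM. Both receptors were under the filter, with overlapping groups.

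The other 38 genes had a mean under 1 RPKM and were not tested. Apart from the 9 listed at 0, 6 of them reached 1 RPKM in at least 1 library: Cxcr4 as above, Ccl4, Cxcl11, Cxcl13, Cxcl17 and Cxcr7. Ccl4, a CC chemokine of macrophages, reached 1.07 RPKM in the second dKO library and was listed at 0 in 2 control libraries. Cxcl17, a mucosal chemokine, reached 1.19 RPKM in the third dKO library, with 0.662 and 0.123 RPKM in the other two and at most 0.188 RPKM in control. Cxcl13, which draws B cells, was at 1.44, 0.137 and 0.699 RPKM in control and 0.708, 0.807 and 1.41 RPKM in dKO. Cxcl11, a further Cxcr3 ligand, was at 1.46, 1.00 and 0.633 RPKM in control and 0.894, 0.769 and 0.310 RPKM in dKO. Cxcr7, a scavenging receptor of Cxcl12 now named Ackr3, was at 0.805, 0.864 and 0.648 RPKM in control and 0.603, 0.636 and 1.27 RPKM in dKO. Of these 6, Cxcr4 alone had no overlap between the groups. At 0 in every control library but above 0 in a dKO library were 8 genes (Ccl8, Ccl11, Ccl12, Ccl17, Ccl20, Ccl22, Ccr8 and Cxcr1), and Ccl28 showed the reverse. These rest on few reads, about 11 at most by the estimated depth (Ccl22 in the third dKO library). The share of all listed genes with either pattern was not computed, and over all listed genes more were above 1 RPKM in each dKO library. The count is therefore not a result about the family. When the filter was dropped, 29 of the 38 could be fitted, none had a limma adjusted p under 0.05 and 6 had an unadjusted p under 0.05, Cxcr4 with the smallest (adjusted p = 0.0590).

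**Figure D3:**
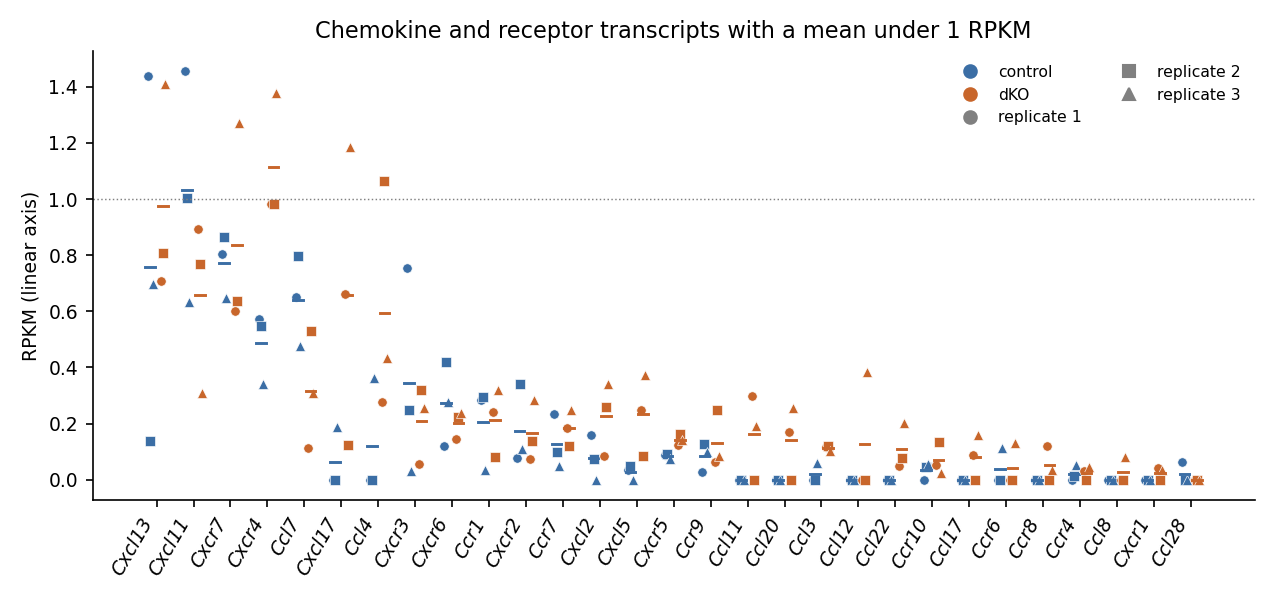
RPKM on a linear axis of the 29 chemokine and receptor genes with a mean above 0 and under 1 RPKM, ordered by mean; the dotted line marks 1 RPKM. Points are libraries (3 control in blue, 3 dKO in orange, shape for the replicate) and bars are group means. Cxcr4 is the gene among the more abundant ones whose dKO points all lie above its control points.

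Genes that act with the family were followed in lists. A list of 11 atypical receptors and other chemokine or related genes lay outside the name pattern, except for Cxcr7, a member already described above. Of these 11, 6 were tested and 1 was called higher. That gene was Ccbp2, the scavenging receptor of inflammatory CC chemokines now named Ackr2. It was at 0.766, 0.800 and 0.960 RPKM in control and 1.53, 2.09 and 2.18 RPKM in dKO (limma, adjusted p = 0.0258). Ccbp2 passed the filter through its dKO values. It was not called on either scaling, nor without the first or the third control library or the second or the third dKO library. Of 19 tested genes of receptor signalling, 3 were called higher and none lower, with a median log2 change of 0.29. That share, as in the lists that follow, is to be read against the 17.8% called higher and the median of 0.23 over all tested genes, and the count was 1 without the first control library. They were Elmo1, part of the Rac activator engaged by chemokine receptors (1.10 ± 0.558 to 3.93 ± 0.573 RPKM, SD, n = 3 each; limma adjusted p = 0.00700), the arrestin Arrb1 and the receptor kinase Grk5. The call of Grk5 was lost in 7 of the 13 alternatives and that of Elmo1 in none of them. Dock2, Vav1, Prex1 and Rgs1 of this list passed the filter through their dKO values. They were not called, but their positive changes enter the median.

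Of 15 tested genes of the NF-kB pathway, which drives transcription of many chemokines, 4 were called higher and none lower (median log2 change 0.33), with Relb passing the filter through its dKO values. Relb went from 0.730 ± 0.282 to 2.12 ± 0.34 RPKM, Tnfaip3 from 1.10 ± 0.34 to 3.11 ± 0.97 RPKM and Nfkb2 from 2.32 ± 0.83 to 5.25 ± 1.23 RPKM (SD, n = 3 each; limma adjusted p = 0.0161, 0.0192 and 0.0213). The count fell to 2 higher and 1 lower after median-ratio scaling, to 0 and 1 after quantile normalization, and to 1 and 0 without the third control or the third dKO library. It was 2 and 0 without the first library of either group. Of 10 tested inducing cytokines and their receptors, Ifngr1 alone was called, at a limma adjusted p of 0.04996, a call lost in 11 of 13 alternatives, and Ifng and Il17a were listed at 0 in every library. Of 14 tested genes that present chemokines on heparan sulphate or cleave them, 3 were called higher, all of heparan sulphate synthesis (Ext1, Ext2 and Hs2st1; limma adjusted p = 0.0141, 0.0463 and 0.0443). In the same list Ndst1, Ndst2 and Hs6st1, also of that synthesis, were not called (log2 changes 0.03, 0.14 and -0.12). After either scaling 1 of those 14 was called and without the first control library none was. Without the third control library, or the first or the third dKO library, 1 was called. Ext2 lost its call in 10 and Hs2st1 in 9 of the 13 alternatives. Adam17, which sheds Cx3cl1, had means of 8.25 ± 0.299 in control and 10.99 ± 1.72 in dKO (RPKM, SD, n = 3 each) and was not called (limma, adjusted p = 0.0848).

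Markers of the cell types that could supply these transcripts moved with the groups to different degrees, and their part in the chemokine results was not tested. Of 8 cholangiocyte markers, 5 were tested and all 5 were called higher, with 4 of them called after either scaling. Of these, Epcam had a control mean of 0.359 RPKM and passed the filter through its dKO values. With no filter 5 of the 8 were called higher, with a median log2 change of 0.95 in place of 2.40. Krt19 lost its call in 8 of the 13 alternatives. The sum over the 8 was 30.9, 27.6 and 79.5 RPKM in control and 488, 339 and 979 RPKM in dKO, most of it from Spp1. The third library was the highest of each group in this sum, and it was the highest of each group for Cxcl14 and Cx3cl1 as well. In Cxcl14, Cx3cl1 and the cholangiocyte sum the third dKO library is the highest and the second the lowest of dKO. That order holds equally for the Kupffer cell, leukocyte, T and NK cell and endothelial sums. Among 14 Kupffer cell and macrophage markers, 2 were called higher (Vsig4 and Lyz2) and none lower, and the sums overlapped at 217 to 441 RPKM in control and 346 to 484 RPKM in dKO. Without the second control library 9 of the 14 were called higher, with a median log2 change of 0.74 in place of 0.41, and without the third 1 was called higher and 1 lower. Of 8 general leukocyte markers (Lcp1 the most abundant) none was called, and the sum was 45.4, 81.0 and 34.8 RPKM in control and 57.8, 56.7 and 70.9 RPKM in dKO. Without the second control library, the setting in which Cx3cr1, Ccr2 and Ccl9 would be called, 3 of these 8 were called higher and their median log2 change went from 0.28 to 0.62. The second control library was the highest and the third the lowest of the 6 in that sum. Cxcl9, Cxcl10, Ccr3, Ccr2, Ccl24 and the called Cxcl16 had the same order among the controls, and the other tested members described here had another order. The likeness was seen after the values were known, and the share of all genes with this order was not computed.

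Monocyte markers summed to 4.98 to 18.7 RPKM in control and 12.4 to 49.3 RPKM in dKO, mostly Plac8, and neither of the 2 tested was called. Neutrophil markers summed to 54.9 to 115 RPKM and 38.1 to 78.2 RPKM, mostly S100a8 and S100a9, with no call among 4. T and NK cell markers (Gzma the most abundant) were at 2.45 to 8.32 RPKM in control and 3.59 to 5.56 RPKM in dKO, B cell markers (Cd79a) at 1.57 to 2.75 RPKM and 3.21 to 4.65 RPKM, and dendritic cell markers (Zbtb46) at 2.45 to 4.42 RPKM and 3.11 to 4.09 RPKM. Of the genes in these 3 lists, Gzma alone was abundant enough to be tested, and it was not called (limma, adjusted p = 0.682). Endothelial markers (Fcgr2b the most abundant) summed to 108 to 122 RPKM in control and 125 to 142 RPKM in dKO with no call among 8. Stellate cell markers summed to 222 to 244 RPKM and 227 to 328 RPKM with 1 call higher among 10 (Colec11). Colec11 lost that call in 8 of the 13 alternatives, both scalings among them. Hepatocyte markers summed to 50602 to 68922 RPKM and 41838 to 50115 RPKM, with 4 of 10 called lower, led by Tat, Cyp2e1 and Serpina1c, 3 after median-ratio scaling and 2 after quantile normalization. With single libraries left out that count was 1 to 5, the 1 without the first control library, and 2 without the third control, the first dKO or the third dKO library. No marker of any list was at 0 in all 6 libraries.

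**Figure D4:**
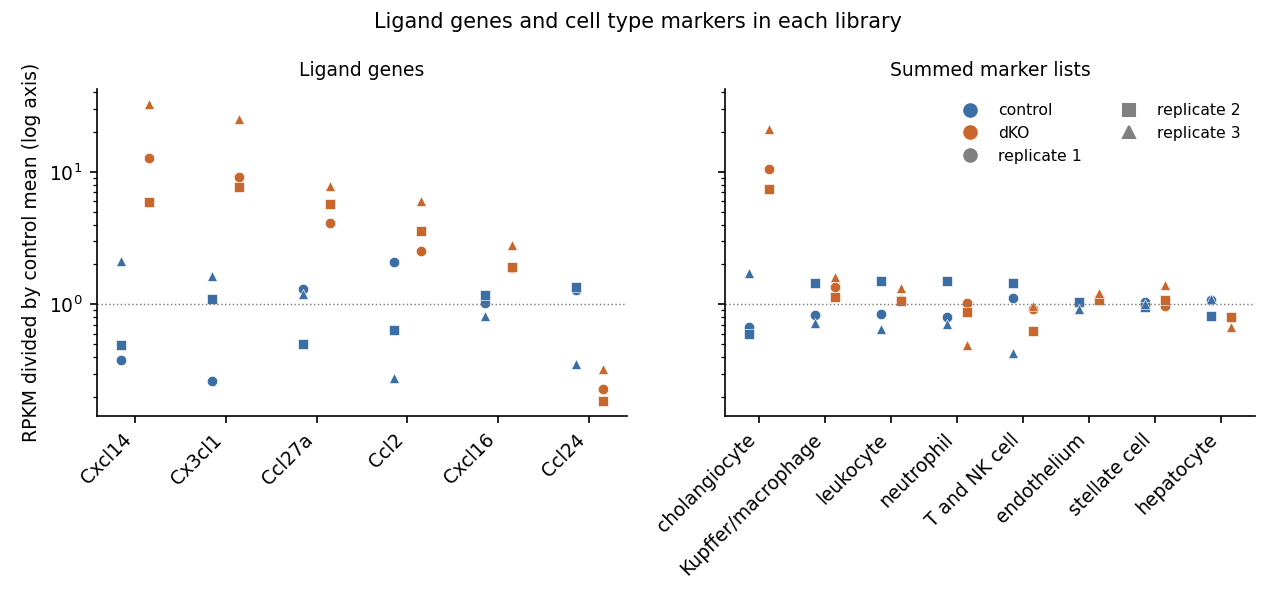
The 5 called ligands and Ccl24 (left) and summed cell type marker lists (right), each divided by its control mean, on a log axis; the dotted line is the control mean. Points are libraries (3 control in blue, 3 dKO in orange, shape for the replicate). The cholangiocyte sum is the marker list with all dKO libraries several times above all control libraries, and the third dKO library is its highest. The same library is the highest of dKO in the Kupffer/macrophage, leukocyte, T and NK cell, endothelium and stellate cell sums.

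Position and promoter sequence were compared as description. In the RefSeq annotation (GRCm38.p6), 31 members stand in 10 runs of neighbouring family genes. Called and uncalled genes shared runs: Ccl2 stands beside Ccl7, Ccl11, Ccl12, Ccl8 and Ccl1, none of which reached 1 RPKM in any library, and Cx3cl1 stands between Ccl22 and Ccl17, both listed at 0 in every control library. Ccl26, at 0 throughout, is the neighbour of Ccl24, and Ccl9 and Ccl6 stand side by side and were both higher in dKO on average without being called. RefSeq promoters (250 bases before to 50 after a start site) were found for 13 of the 18 tested genes, among them 3 of the 5 called (Ccl27a, Cx3cl1 and Cxcl14). The TEAD motif GGAATG, searched on both strands, was in none of their 16 promoters and in 14.7% of all promoters in the table. The kappaB pattern (GGG, any 5 bases, CC, both strands) was in 10 of the 16 promoters of these 13 genes and in 50.8% of all promoters, and of the 3 called genes Ccl27a had it. A motif match is a description of these letters in this window only.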

How the data were processed

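Poly-A RNA of 6 mouse liver libraries (3 control, 3 dKO) was sequenced. The deposited files hold 1 value per gene and library, RPKM as computed by the authors, and were mapped to mm9 per the submitters' processing notes. The unit rests on the values, and the aligner, counter and annotation are not given in the sources used here. Here log2(RPKM + 1) was fitted with limma 3.58.1 (R 4.3.3; trend and robust moderation, no covariates) over the 11062 genes whose mean reached 1 RPKM, with p-values adjusted over all of them, and the code was tested on simulated data. RPKM are not counts, so no count model was used. Approximate depth came from the spacing of low values, of which 73.7% to 79.4% per library lay within 0.15 of a whole read, too few to recover reads. Sequence copies and codons came from GENCODE M21 and promoters from RefSeq (GRCm38.p6), by symbol, and no coordinates were joined to the mm9 values. Every tested member was named except 1 receptor gene, which enters the counts and is not reported here; of the other lists, up to 3 called genes with the smallest p, or else the most abundant gene, with others named beside results they touch (Marco, Adam17, Spp1, Colec11, S100a9). The members and lists were chosen with earlier results of these data known.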

Additional observations from a re-analysis of the deposited data

How the results depend on the processing

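Under 13 alternative fits, Ccl27a and Cxcl16 kept their calls in all, while Cxcl14 lost its call in 3, Cx3cl1 in 2 and Ccl2 in 8, and the cause was not tested. The number of the family's genes called higher (5) was 3 after quantile normalization, 1 at an adjusted p under 0.01, and 3 to 6 with single libraries left out, the 3 without the first control library. The number called lower (0) was 1 after median-ratio scaling, quantile normalization or no robust moderation, and 0 to 1 with single libraries left out. Over all genes, 1965 higher calls became 873 after median-ratio scaling, 727 after quantile normalization and 490 at an adjusted p under 0.01, and 755 to 1983 with single libraries left out. The 240 lower calls became 145 without the filter (more genes were tested), 614, 554 and 49 under those same settings in that order, and 90 to 241 with single libraries left out. The median change of the 18 tested members, 0.59, was 0.32 after median-ratio scaling. It was 0.38 to 0.63 with single libraries left out, lowest without the third control library and 0.39 without the third dKO library. Among the 18 are the 5 members that passed the filter through their dKO values. Signs reversed for Ccl5 (-0.11 after median-ratio scaling, -0.35 after quantile normalization, -0.32 to 0.44 with single libraries left out) and Ccr3 (-0.19, -0.32, and -0.24 to 0.43). With single libraries left out, Ccl25 ran from -0.21 to 0.078. Same-numbered libraries did not deviate together (correlations -0.08, -0.10 and -0.01). With 3 libraries per group such correlations cannot settle whether the numbers pair them, which the labels do not state. With the replicate block 5 genes of the family were again called higher, Ccl2 was lost (adjusted p = 0.0851) and Cx3cr1 gained (0.0394). Depth limits the genes under 1 RPKM, which rest on about 94 reads or fewer per library where a transcript length was matched.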
